A study of Homo sapiens and Mus musculus with 56 samples.

Results

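The genes described here are 9 markers of glial cells and neural stem cells, followed across 5 human glioblastoma lines, 2 treatments and 2 array platforms. They were taken by name: SOX2, POU3F2, OLIG1, OLIG2, GFAP, NES, FABP7, S100B and PTPRZ1 on the human arrays, and the same symbols in mouse case on the mouse arrays. All 9 of 9 had a probe set on both platforms, among 18417 human genes and 19938 mouse genes tested. Each was read by 1 probe set, except mouse Pou3f2 with 2, of which the brighter was used.

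The 56 arrays hold RNA of the lines SF295, U118, U87M2, DBM2 and U251M2, with 28 arrays on each platform. The 28 human arrays are labelled as glioblastoma cells kept in culture and given either the solvent DMSO, called vehicle here, or V-4084 for 7 days. V-4084 is a small-molecule inhibitor of MET, the receptor kinase of hepatocyte growth factor, kept as a 0.01 M stock; the sources used here state no final concentration. The 28 mouse arrays are labelled as tumours grown from 500000 cells of the same lines under the skin of the flank of nude mice, which lack a thymus and most T cells but keep other immune cells. Mice received V-4084 at 30 mg/kg, or its vehicle of 0.5% MC 400 and 0.05% Tween 80, for 7 days. A group held 3 arrays, except 2 for both human SF295 groups, mouse SF295 with vehicle and mouse U251M2 with V-4084. Each line is 1 line and not a sample of lines, and a flank is not brain tissue. The labels do not state that repeats were separate cultures or animals, so p-values measure only the spread between these arrays.

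SOX2 and POU3F2 are transcription factors of neural stem and progenitor cells, and OLIG1 and OLIG2 are basic helix-loop-helix factors of oligodendrocyte precursors. GFAP and nestin (NES) are intermediate filament proteins, of astrocytes and of neural stem cells respectively. FABP7 is the brain fatty acid-binding protein of radial glia, S100B a calcium-binding protein of astrocytes, and PTPRZ1 a receptor phosphatase of glial precursors. In glioblastoma, SOX2, OLIG2 and POU3F2 are known as factors of the stem-like state. Gliomas differ widely in how much of this programme they keep.

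Several features of the arrays touch these values. Array medians ran from 6.63 to 6.871 (log2) on the human platform and from 6.106 to 6.307 on the mouse platform. Of the human V-4084 arrays, 3 had a narrow range of values. They are repeat 2 of DBM2, repeat 1 of U251M2 and repeat 2 of SF295, and their SDs ran from 1.75 to 1.90, while no vehicle array was under 2.03. The values carry no detection call. As a guide to the low end of the scale, 341 olfactory receptor genes had a median of 5.01 and a 95th percentile of 6.38 on the human arrays, and 1015 such genes 4.45 and 6.07 on the mouse arrays. A level under that 95th percentile is called low here: it was not shown to lie above background, so no fold is given against it and low levels are not ranked. The source and cell line fields of 3 human arrays name SF295 while their titles name DBM2 with V-4084, and they were placed by title. Their POU3F2 levels of 8.06, 8.06 and 7.93 lay with the DBM2 vehicle arrays (7.74, 8.08 and 8.05) and above all 4 SF295 arrays (5.99 to 6.46). Although the human arrays are labelled as cultured cells, their skeletal muscle genes varied within groups in step with mouse arrays that share their line, treatment and number. Over 27 such pairs the summed level of the muscle list gave Pearson r = 0.936 (permutation p = 3e-05, Benjamini-Hochberg-adjusted p = 0.0003 over 10 relations) and Spearman rho = 0.905 (permutation p = 7e-05, adjusted p = 0.0007). Without the 2 farthest pairs r was 0.912, and it was 0.917 within vehicle pairs and 0.944 within V-4084 pairs. None of the 9 genes passed in the same test, with a smallest adjusted permutation p of 0.477 (OLIG1, r = 0.333). The source of the RNA on the human arrays was not tested further. In tissue RNA, fewer cells of a type and less RNA per cell cannot be told apart.

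U251M2 stood at the top of the human arrays for most of the identity genes. On vehicle arrays, 6 of 9 genes were called higher in U251M2 than in each of the other 4 lines: SOX2, POU3F2, GFAP, NES, FABP7 and PTPRZ1. A call is an adjusted p under 0.05, here in limma's moderated test with Benjamini-Hochberg adjustment over all genes of a contrast. Across all human genes, 4.32% were called in this way for U251M2. Line differences over the 5 vehicle groups were called by limma's F test for 7 of 9 genes, against a background of 58.4% of all genes. OLIG1 and OLIG2 were the 2 that did not pass. Of the 90 pairs of lines over the 9 genes, 53 were called, beside 30.9% of all such pairs over all human genes.

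**Figure D1:**
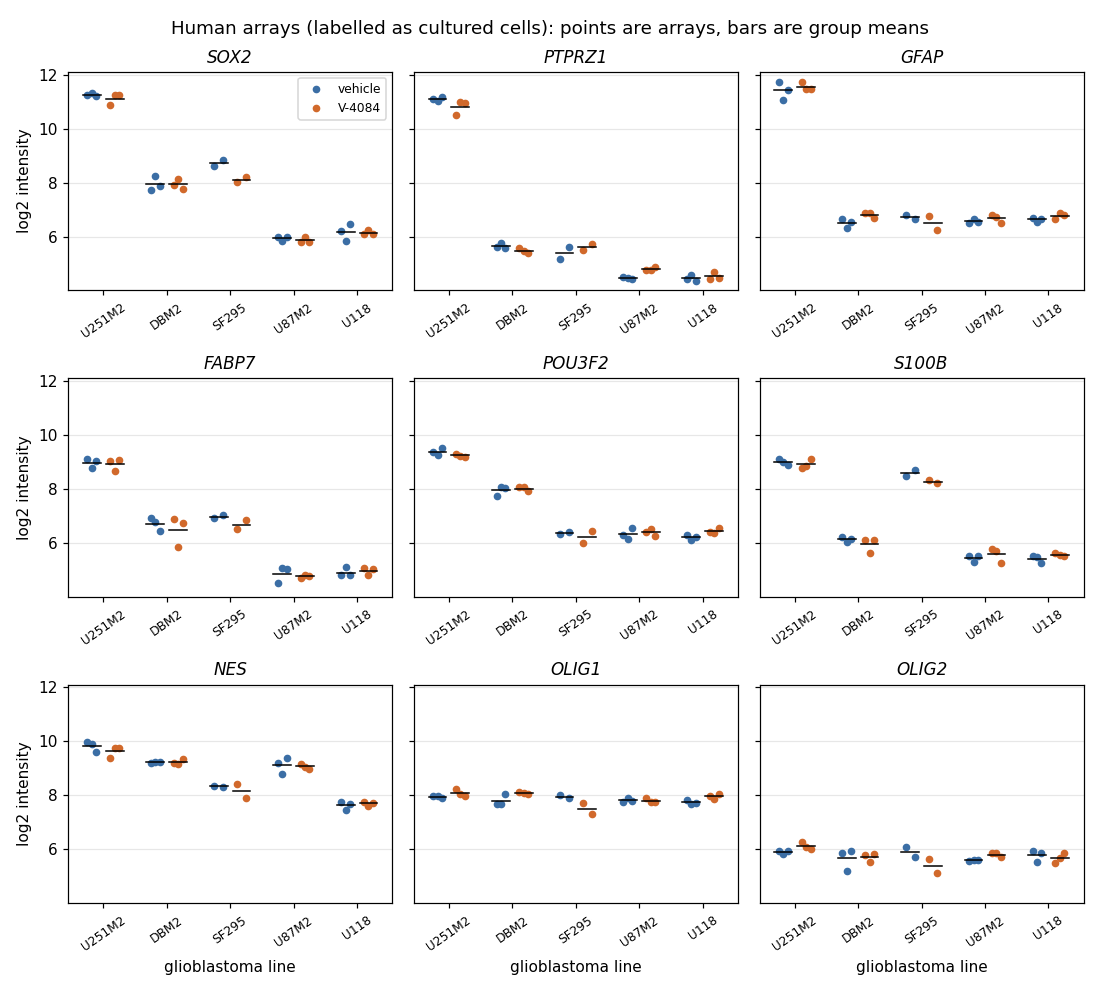
Log2 intensity of the 9 genes on the 28 human arrays, by line and treatment; each point is an array and each bar a group mean. For SOX2, PTPRZ1, GFAP, FABP7, POU3F2 and S100B every U251M2 array lies above all 22 arrays of the other lines, while OLIG1 and OLIG2 stay within 7.29 to 8.23 and 5.12 to 6.26 over all arrays.

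SOX2 was highest in U251M2, intermediate in SF295 and DBM2, and low in U118 and U87M2. Its vehicle arrays read 11.23, 11.32 and 11.22 in U251M2, 8.60 and 8.85 in SF295, and 7.74, 8.24 and 7.86 in DBM2. They read 6.21, 5.84 and 6.48 in U118 and 5.98, 5.85 and 5.99 in U87M2. The U251M2 arrays lay apart from all others, SF295 lay above DBM2 without overlap, and U118 and U87M2 overlapped. The mean in U251M2 (11.26 ± 0.06, SD, n = 3) was 5.81-fold that of SF295 (difference 2.54, SE 0.17, limma adjusted p = 2.06e-12) and 9.93-fold that of DBM2 (3.31, SE 0.15). Against the low U87M2 mean (5.94) the measured difference was 5.32 (SE 0.15). SF295 exceeded DBM2 by 0.77 (SE 0.17, limma adjusted p = 0.000693). U118 and U87M2 differed by 0.24 (SE 0.15, limma adjusted p = 0.268).

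POU3F2, also known as BRN2, separated U251M2 and DBM2 from the remaining lines. Its vehicle arrays read 9.36, 9.27 and 9.52 in U251M2 and 7.74, 8.08 and 8.05 in DBM2. SF295, U87M2 and U118 lay together between 6.11 and 6.57. The U251M2 mean (9.38) was 2.69-fold the DBM2 mean (difference 1.43, SE 0.13, limma adjusted p = 8.05e-10) and exceeded the SF295 mean (6.37) by 3.02 (SE 0.14). The means of SF295, U87M2 and U118 were low. No pair among SF295, U87M2 and U118 was called. DBM2 thus lay above SF295 in POU3F2 (difference 1.59, SE 0.14) and below it in SOX2.

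FABP7, like SOX2, was highest in U251M2, intermediate in SF295 and DBM2, and low in U118 and U87M2. On vehicle arrays it read 9.11, 8.78 and 9.04 in U251M2, 6.92 and 7.04 in SF295, and 6.92, 6.76 and 6.46 in DBM2. U118 (4.82, 5.11 and 4.80) and U87M2 (4.53, 5.06 and 5.03) were low and overlapped. U251M2 was 3.99-fold above SF295 (difference 2.00, SE 0.22, limma adjusted p = 4.48e-08) and 4.80-fold above DBM2, and its measured difference from the low U87M2 mean (4.87) was 4.10 (SE 0.20). SF295 and DBM2 were not told apart (0.27, SE 0.22, limma adjusted p = 0.453). Over the 28 human arrays FABP7 was the gene most like SOX2 (Pearson r = 0.982, as a description over 5 lines that share platform and processing), followed by TUBB2B, a beta-tubulin (r = 0.981), and MLLT3 (r = 0.973).

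The stretches before the starts of SOX2, FABP7 and POU3F2 are printed because all were called highest in U251M2, and SOX2 and POU3F2 encode factors of known motifs. Binding of these factors to the stretches was not tested. They are the 250 bases before the start in RefSeq's promoter table on GRCh38.p14, all on the plus strand: chr3:181711675-181711924 for SOX2, chr6:122779466-122779715 for FABP7 and chr6:98834324-98834573 for POU3F2. For FABP7 that start lies inside a longer RefSeq gene record that begins further upstream, so the stretch belongs to a later start of the gene. Capitals mark matches, on either strand, to a SOX core (ACAAAG or ACAAT), an octamer-like run (ATGCAAA) or a CCAAT box (CCAAT).
SOX2: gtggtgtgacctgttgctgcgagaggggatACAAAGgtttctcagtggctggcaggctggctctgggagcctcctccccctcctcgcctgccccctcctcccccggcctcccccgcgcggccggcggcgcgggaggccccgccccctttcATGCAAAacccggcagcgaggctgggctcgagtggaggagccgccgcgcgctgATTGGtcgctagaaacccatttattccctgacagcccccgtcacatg
FABP7: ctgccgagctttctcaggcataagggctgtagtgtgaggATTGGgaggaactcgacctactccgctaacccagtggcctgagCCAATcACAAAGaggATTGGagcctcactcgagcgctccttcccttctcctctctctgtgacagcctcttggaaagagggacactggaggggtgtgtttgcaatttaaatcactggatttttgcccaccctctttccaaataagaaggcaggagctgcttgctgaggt
POU3F2: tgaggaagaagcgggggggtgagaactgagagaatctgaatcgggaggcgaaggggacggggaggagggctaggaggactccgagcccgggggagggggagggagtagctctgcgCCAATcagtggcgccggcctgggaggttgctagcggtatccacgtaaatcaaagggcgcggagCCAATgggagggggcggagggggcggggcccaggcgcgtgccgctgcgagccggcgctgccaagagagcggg
The SOX2 stretch held an ACAAAG at -220 to -215 from the start, an ATGCAAA at -100 to -94 and a reverse CCAAT at -47 to -43. In FABP7 an ACAAAG at -162 to -157 stood between a CCAAT at -168 to -164 and a reverse CCAAT at -153 to -149, with a further reverse CCAAT at -211 to -207. POU3F2 held a CCAAT at -135 to -131 and at -72 to -68, and neither SOX core nor octamer letters. No match overlapped another. Of the stretches of PTPRZ1 and NES, each held a single reverse ACAAT, at -200 to -196 and at -225 to -221. Among 35116 RefSeq promoters of this length, 13.7% held ACAAAG, 24.6% ACAAT, 3.94% ATGCAAA and 32.0% CCAAT on either strand. A match describes letters in this window only. Sequences of 5 of the 9 genes were found; OLIG1, OLIG2, GFAP and S100B had no entry in the promoter table.

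GFAP, the filament protein of mature astrocytes, was high in a single line. On vehicle arrays it read 11.73, 11.06 and 11.44 in U251M2. In SF295 they read 6.80 and 6.65, in U118 6.71, 6.56 and 6.65, in U87M2 6.50, 6.65 and 6.55, and in DBM2 6.64, 6.31 and 6.56. The 4 other lines lay together between 6.31 and 6.80, far below U251M2. The mean in U251M2 was 11.41 ± 0.34 (SD, n = 3), 25.7-fold that of SF295 (difference 4.69, SE 0.16, limma adjusted p = 5.72e-18) and 30.0-fold that of DBM2 (4.91, SE 0.15). No pair of the other 4 lines was called. Their means (6.50 to 6.73) lay close to the 6.38 that marks the low end, and the DBM2 array at 6.31 lay under it. The folds are thus against levels near the low end. With U251M2 left out, which was chosen after seeing the data, the limma adjusted p for differences between the remaining vehicle groups was 0.574 (1.4e-24 to 0.574 over all alternatives).

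PTPRZ1 had the widest spread of the 9 genes, 6.62 on the log2 scale between the highest and lowest vehicle groups. Its vehicle arrays read 11.11, 11.01 and 11.15 in U251M2. They read 5.63, 5.75 and 5.60 in DBM2, 5.17 and 5.62 in SF295, 4.50, 4.47 and 4.42 in U87M2, and 4.44, 4.58 and 4.38 in U118. U251M2 lay far above the rest, and the means of the other 4 lines were all low. The measured difference of U251M2 ran from 5.43 (SE 0.13) against DBM2 to 6.62 (SE 0.13) against U118 and U87M2. The most similar gene over the 28 arrays was NCAM1, a neural cell adhesion molecule (r = 0.990), which on vehicle arrays lay at 8.85 in U251M2 and between 5.55 and 6.19 in the other lines.

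S100B was high in both U251M2 and SF295. The vehicle arrays read 9.12, 8.98 and 8.90 in U251M2 and 8.49 and 8.71 in SF295, against 6.22, 6.03 and 6.16 in DBM2. U87M2 read 5.53, 5.31 and 5.52, and U118 read 5.53, 5.48 and 5.27. The arrays of U251M2 and SF295 did not overlap, yet their difference of 0.40 (SE 0.16) missed the threshold (limma adjusted p = 0.0614; 0.0109 to 0.416 over the alternatives). The means of DBM2, U87M2 and U118 were low, and the measured difference of SF295 from DBM2 was 2.46 (SE 0.16, limma adjusted p = 9.53e-13). The gene most like S100B was EDNRB, the endothelin B receptor of glial cells (r = 0.989), at 7.73 in SF295 and at most 5.68 in DBM2, U87M2 and U118.

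NES, the nestin gene, differed less between lines than most of the other genes. With vehicle the arrays read 9.97, 9.89 and 9.62 in U251M2, 9.18, 9.22 and 9.25 in DBM2, and 9.21, 8.77 and 9.39 in U87M2. SF295 read 8.34 and 8.32, and U118 read 7.74, 7.46 and 7.68. U251M2 was highest and U118 lowest without overlap, while DBM2 and U87M2 overlapped (0.09, SE 0.14, limma adjusted p = 0.709). The U251M2 mean was 1.53-fold that of DBM2 (difference 0.61, SE 0.14, limma adjusted p = 0.00154) and 4.59-fold that of U118 (2.20, SE 0.14). Over both treatments all 6 U118 arrays (7.46 to 7.76) lay below the 22 others (7.91 to 9.97).

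The oligodendrocyte factors showed no line difference that passed the test on vehicle arrays. OLIG1 means ran from 7.75 in U118 to 7.95 in SF295 (limma F test, adjusted p = 0.524). OLIG2 means, all low, ran from 5.60 in U87M2 to 5.90 in SF295 (limma F test, adjusted p = 0.39). The 2 genes are neighbours on human chromosome 21, with 1 non-coding gene between them. For neither gene did 1 line stand apart from all others, and none of the 10 pairs of lines was called for either. SOX10, another factor of the oligodendrocyte lineage, also lay within a narrow band, 6.91 to 7.11 over the 5 vehicle means.

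U251M2 stood apart under both treatments. Over vehicle and V-4084 arrays together, every U251M2 array lay above all arrays of the other lines for SOX2, PTPRZ1, GFAP, FABP7, S100B and POU3F2, which is 6 of 9 genes against 3.34% of all human genes. On V-4084 arrays, 9 of 9 genes were called for line differences against a background of 62.7%. OLIG1 (adjusted p = 0.00181; 0.000276 to 0.0666 over the alternatives) and OLIG2 (adjusted p = 0.0124; 1.72e-05 to 0.273) had ranges of only 0.58 and 0.74 there. Without the 3 narrow-range arrays, OLIG1 (0.0666) and OLIG2 (0.273) no longer passed in limma's F test; OLIG2 also did not pass without SF295 V-4084 repeat 2 (0.0766) or U251M2 V-4084 repeat 1 (0.0522).

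**Figure D2:**
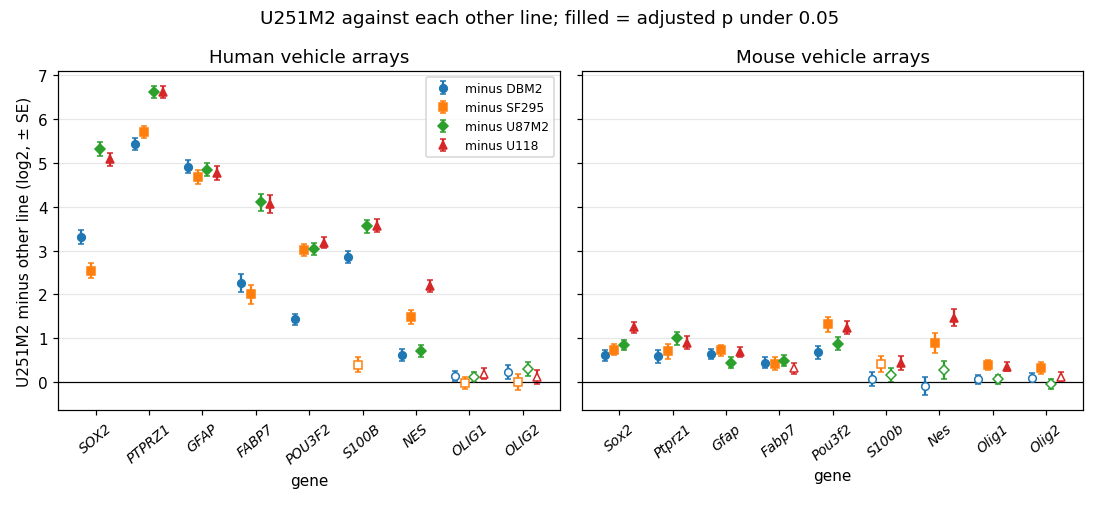
U251M2 minus each other line on vehicle arrays (log2, with limma's SE), human arrays on the left and mouse arrays on the right; filled symbols are adjusted p under 0.05. Human differences reach 6.62 (PTPRZ1) and mouse differences 1.47 (Nes against U118).

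Other genes of the neural and glial programme also set U251M2 apart, though not the whole programme. Of the neural stem and progenitor list, 8 of 27 measured genes were called higher in U251M2 than in each other line: SOX4, SOX9, SOX11, MSI1, SALL2, SALL3, NFIA and NFIB. MSI1, an RNA-binding protein of neural progenitors, was 2.44-fold to 3.83-fold higher, and NFIB, a nuclear factor of glial development, 2.60-fold to 5.46-fold. Of 18 astrocyte genes, SLC1A3, GLUL, ATP1B2 and FGFR3 were called, which are 4. SLC1A3, the glial glutamate transporter, was 3.55-fold to 7.11-fold higher than in U87M2, U118 and SF295, and its DBM2 level (5.24) was low. The oligodendrocyte precursor list had 1 of 17 (SOX6), and 1 of 12 neuronal genes (NCAM1) and 0 of 13 mesenchymal genes were called in this way. So were 2 of 7 Schwann and nerve genes (NGFR and ERBB3) and 2 of 9 genes of myelinating oligodendrocytes (MOG and CNP). All these counts are to be read against the 4.32% of all human genes called in this way. In the other direction, 6 of 13 mesenchymal genes (FN1, TIMP1, LGALS1, S100A4, TWIST1 and SNAI2) were called lower in U251M2 than in each other line, beside 2.71% of all human genes. The neuronal list had 1 of 12 called lower (SNAP25). Some defining markers did not follow. AQP4, the astrocyte water channel, lay between 4.93 and 5.15 in all 5 vehicle groups, and PROM1, a stem cell surface protein, between 4.19 and 4.65.

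Other genes of these lists were highest in other lines. On vehicle arrays, limma's F test called 20 of 27 neural stem genes, 9 of 17 oligodendrocyte precursor genes, 13 of 18 astrocyte genes, 7 of 12 neuronal genes and 12 of 13 mesenchymal genes, to be read against the 58.4% of all genes. The median range over lines was 1.616 in the neural stem list and 0.473 in the oligodendrocyte precursor list, beside 0.586 over all genes. POU3F4, a relative of POU3F2, was highest in SF295 (9.13) and high in U251M2 (8.58), against at most 6.19 elsewhere. NR2E1, the neural stem cell receptor also known as TLX, was high in U251M2 (7.96) and DBM2 (7.70) and at most 5.82 elsewhere. PDGFRA, the growth factor receptor of oligodendrocyte precursors, was highest in U118 (10.57) and lowest in DBM2 (6.08). CHI3L1, a mesenchymal marker, was highest in SF295 (11.11).

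On the mouse arrays 7 of the 9 genes had smaller ranges over the lines than on the human arrays, and Olig1 and Olig2, with the smallest human ranges, had slightly larger ones. Limma's F test on vehicle arrays called 7 of 9 genes, all but Olig2 (adjusted p = 0.115) and S100b (adjusted p = 0.0732), against 54.3% of all mouse genes. Fabp7 (adjusted p = 0.0163) did not pass without U251M2 vehicle repeat 1 (0.075) or 3 (0.0748). S100b ran from 0.0286 to 0.401 over the alternatives. The ranges over the 5 vehicle means were 1.25 for Sox2, 1.32 for Pou3f2, 0.72 for Gfap, 1.57 for Nes, 0.49 for Fabp7, 1.00 for Ptprz1 and 0.39 for Olig1. Only Nes and Pou3f2 had means above the low end in all 5 vehicle groups, and the vehicle means of Sox2, Ptprz1 and Fabp7 were low in every line. Of 90 pairs of lines, 40 were called, beside 22.7% over all mouse genes. That share differed between pairs. It was 26.7% to 40.1% for pairs of SF295 or U118 with U87M2, DBM2 or U251M2. Between SF295 and U118 it was 7.01%, and among U87M2, DBM2 and U251M2 it was 4.29% to 9.35%. All 6 called pairs of Nes and all 6 of Olig1 were of the kind with the higher share.

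U251M2 was again called higher than each other line for 4 of 9 genes, Sox2, Ptprz1, Gfap and Pou3f2, beside 0.391% of all mouse genes. The count was 2 without DBM2 vehicle repeat 1, U251M2 vehicle repeat 1 or U251M2 vehicle repeat 2, and up to 5 without another array. Of these genes only Pou3f2 had vehicle means above the low end in every line. The means of Sox2 and Ptprz1 were low in all lines and those of Gfap in all but U251M2. Differences of these 3 genes are between measured values only. Sox2 vehicle arrays read 6.11, 5.98 and 6.02 in U251M2 and between 4.65 and 5.54 in the other lines. Gfap read 6.57, 6.58 and 6.29 in U251M2 and at most 6.07 elsewhere. For both, every U251M2 array of either treatment lay above all 23 arrays of the other lines, which held for 0.456% of all mouse genes.

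Pou3f2 and Ptprz1 gave smaller gaps. Pou3f2 read 7.91, 7.63 and 7.69 in U251M2 with vehicle against 7.29 at most in the other vehicle groups, and Ptprz1 read 5.06, 5.64 and 5.03 against 4.79. The vehicle arrays did not overlap, but with the V-4084 arrays added, U251M2 touched DBM2 in Pou3f2 and overlapped SF295 in Ptprz1. U251M2 exceeded the other lines 1.60-fold to 2.50-fold for Pou3f2, while Ptprz1 was low in all lines and its differences are between measured values only. These 4 mouse genes were also called highest in U251M2 on the human arrays.

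Among all 14333 symbols shared by the platforms, 680 human genes and 65 mouse genes were called highest in U251M2, and 37 were in both. That is 5.44% of the human genes and 56.9% of the mouse genes. A mouse array on a tumour of human cells reads RNA of the host, and human RNA can bind to mouse probes of like sequence. The share of human RNA in the mouse signal was not tested. Msi1, Nfib and Ncam1 were likewise called highest in U251M2 on both platforms.

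**Figure D3:**
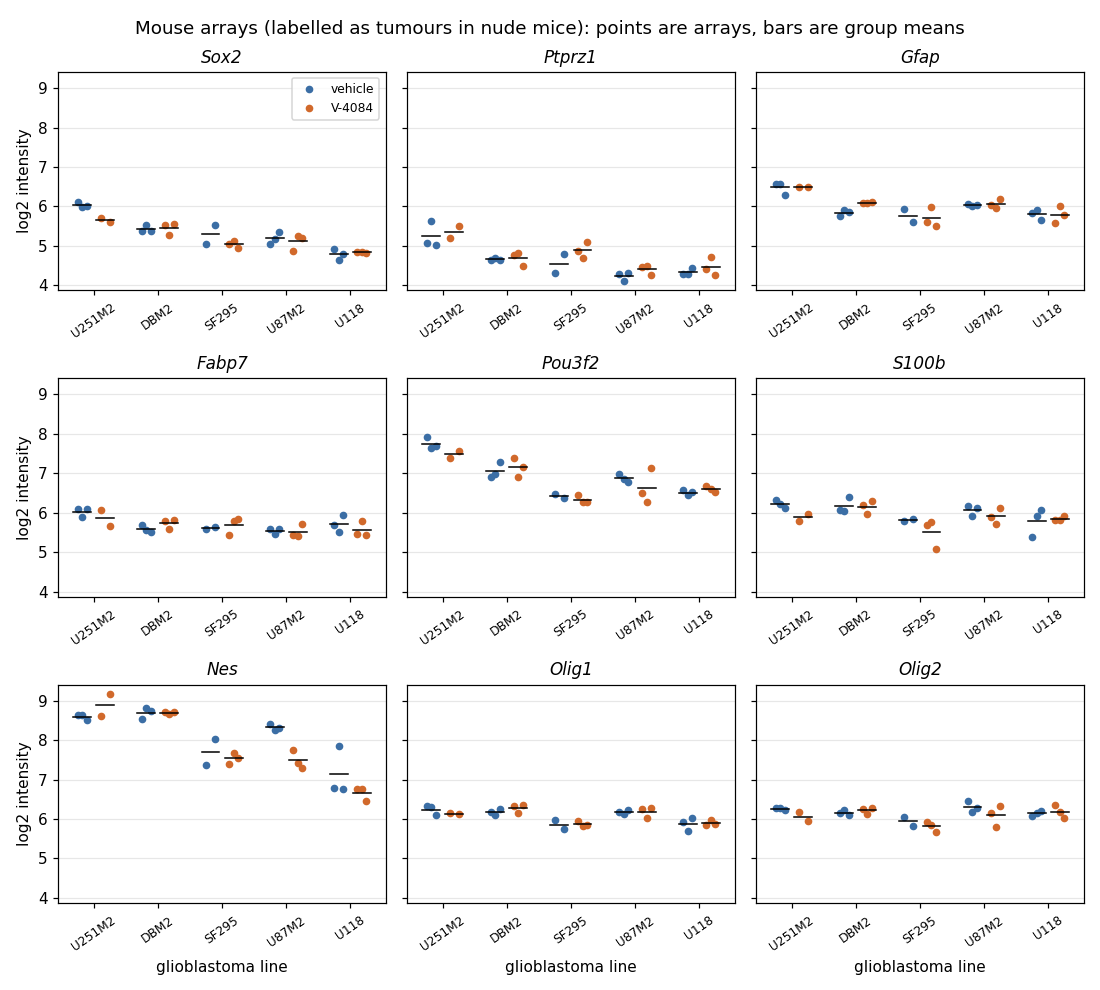
Log2 intensity of the 9 genes on the 28 mouse arrays, by line and treatment; each point is an array and each bar a group mean. Nes spans 6.46 to 9.16 and the other 8 genes reach at most 7.91, with U251M2 at the top for Sox2 and Gfap.

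Nes had the widest range on the mouse arrays, with DBM2 and U251M2 at the top. Its vehicle arrays read 8.53, 8.82 and 8.74 in DBM2, 8.65, 8.63 and 8.52 in U251M2, and 8.40, 8.26 and 8.31 in U87M2. They read 7.38 and 8.03 in SF295, and 6.79, 7.85 and 6.76 in U118. DBM2 and U251M2 overlapped (0.09, SE 0.20, limma adjusted p = 0.885), with the opposite order on V-4084 arrays (8.70 and 8.89), and U118 was lowest on 2 of its 3 arrays. Nestin is also made by muscle precursors, pericytes and growing endothelium. The high U118 array (repeat 2) had a summed skeletal muscle level of 14.34, against 13.15 and 12.97 on the others. It was also the highest of the U118 vehicle arrays for the endothelial list (12.04, against 11.58 and 11.50) and for the pericyte and smooth muscle list (11.82, against 11.30 and 11.49). U118 V-4084 repeat 2 had a Nes of 6.75 with levels of 14.05 for muscle, 11.65 for endothelium and 11.44 for pericytes. The part of other cell types in the Nes differences was not tested.

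S100b and the Olig genes moved little. S100b vehicle means lay within 0.44, and SF295, high for S100B on the human arrays (8.60), read 5.80 and 5.83 for S100b. On vehicle arrays Olig1 read 5.70 to 6.03 in SF295 and U118, all low, and 6.09 to 6.32 in the other lines. Array medians were also lower on the SF295 and U118 vehicle arrays (6.112 to 6.208) than on those of the other lines (6.232 to 6.294). With quantile normalization the Olig1 line difference did not pass (limma F test, adjusted p = 0.0676). Olig2 was called in 2 of 10 pairs of lines. On V-4084 arrays limma's F test called 8 of 9 mouse genes, all but Fabp7 (adjusted p = 0.203), against a background of 59.7%. The calls of S100b (adjusted p = 0.023; 0.00696 to 0.186 over the alternatives) and Olig2 (adjusted p = 0.0213; 0.00502 to 0.159) did not hold throughout. With quantile normalization neither passed in limma's F test, while Fabp7 was called (adjusted p = 0.0246). Neither passed without SF295 V-4084 repeat 3 (adjusted p = 0.136 and 0.133).

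No effect of V-4084 on the 9 genes passed the test on the human arrays. In limma's test, 0 of 9 were called in SF295, U118, U87M2, DBM2 and U251M2, against 0%, 0.755%, 15%, 0% and 0% of all genes. At an unadjusted p under 0.05 there were 3 in SF295 (SOX2, OLIG1 and OLIG2), 0 in U118, 1 in U87M2 (PTPRZ1), 2 in DBM2 (OLIG1 and GFAP) and 1 in U251M2 (PTPRZ1). The average over the 5 lines gave 0 of 9 (1 unadjusted, SOX2) against 11.6%, and the test of differences between the lines' effects 0 of 9 (3 unadjusted) against 5.53%. Without the U87M2 line, the shares of all genes called in both of these tests fell to 0%. A p above the threshold does not show that a level stayed the same.

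**Figure D4:**
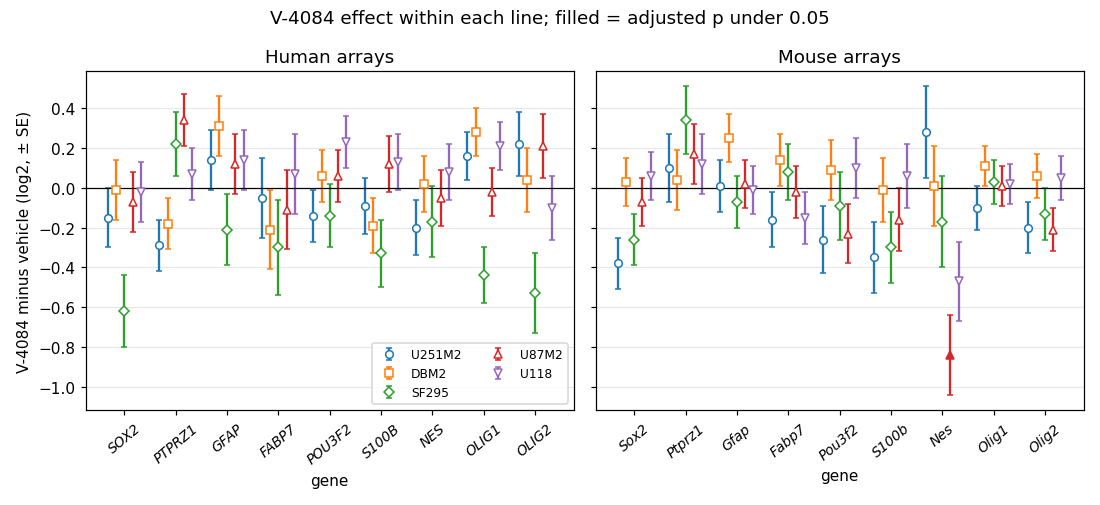
V-4084 minus vehicle within each line (log2, with limma's SE) for the 9 genes, human arrays on the left and mouse arrays on the right; the filled symbol is the 1 effect with an adjusted p under 0.05. That symbol is Nes in U87M2 at -0.84, and human effects run from -0.62 (SOX2 in SF295) to 0.34 (PTPRZ1 in U87M2).

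The adjusted p nearest to the threshold was that of OLIG1 for differences between the lines' effects (0.0808 in limma's F test; 0.00907 to 0.714 over the alternatives). It was called with dim genes left out (0.0461), with array weights (0.0282), without SF295 V-4084 repeat 1 (0.00907) and without DBM2 vehicle repeat 3 (0.0265). Its effects ran from -0.44 (SE 0.14) in SF295 to 0.28 (SE 0.12) in DBM2.

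Among single lines, PTPRZ1 in U87M2 was nearest. It read 4.50, 4.47 and 4.42 with vehicle and 4.76, 4.76 and 4.88 with V-4084. The 2 groups did not overlap, and the difference was 0.34 (SE 0.13, limma adjusted p = 0.0814; 0.00609 to 0.287 over the alternatives). It was called with array weights (limma adjusted p = 0.00609), without the 3 narrow-range arrays (0.0173), with only the 2 U87M2 groups in the fit (0.0225) and without U251M2 V-4084 repeat 1 (0.0404). All 6 arrays were low, under the olfactory receptor median of 5.01, and far under the 10.49 to 11.15 of the U251M2 arrays.

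SOX2 in SF295 read 8.60 and 8.85 with vehicle and 8.01 and 8.20 with V-4084, again without overlap. The difference was -0.62 (SE 0.18, limma adjusted p = 0.422), with 2 arrays a group of which 1 was a narrow-range array. Averaged over the 5 lines SOX2 differed by -0.18 (SE 0.07, limma adjusted p = 0.0904; 0.048 to 0.233 over the alternatives), and the value past the threshold came without U118 vehicle repeat 2. In U251M2, where SOX2 was highest, V-4084 arrays read 10.86, 11.24 and 11.23, and the lowest of these was a narrow-range array.

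OLIG1 and OLIG2 in SF295 were called only without SF295 V-4084 repeat 1 (limma adjusted p = 0.00946 and 0.0297; up to 1 over the alternatives), which leaves the narrow-range array as the lone V-4084 array of that line. OLIG1 there read 8.01 and 7.90 with vehicle and 7.73 and 7.29 with V-4084.

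Some other neural and glial genes passed in U87M2, at shares near those of all genes in the neural stem and mesenchymal lists. Of the neural stem list, 3 genes rose and 1 fell among 27. The oligodendrocyte precursor list had 4 of 17 genes that rose, and the neuronal list 3 of 12. Of 18 astrocyte genes 3 rose and 2 fell, and 2 of 13 mesenchymal genes fell. These shares are to be read against the 15% of all genes called, of which 5.37% rose and 9.62% fell. SPARCL1, a matrix glycoprotein of astrocytes, rose by 2.31 (SE 0.19, limma adjusted p = 2.11e-09), GLUL, glutamine synthetase, by 0.96 (SE 0.18) and GAP43, a growth cone protein, by 1.48 (SE 0.20). ALDOC, 1 of the 2 astrocyte genes that fell, differed by -1.16 (SE 0.15, limma adjusted p = 4.54e-06). PDGFRA rose by 1.30 (SE 0.16) and SOX4 by 1.00 (SE 0.20), while SOX9, a relative of SOX2 and factor of glial cells, fell by 0.73 (SE 0.14). CD44, a mesenchymal surface receptor, fell by 0.87 (SE 0.13). Markers of other cells moved in the same contrast. All 9 of 9 fibroblast genes rose, among them DCN (1.97, SE 0.15), LUM (1.75, SE 0.20), COL3A1 (1.34, SE 0.16) and POSTN (1.33, SE 0.17), and the list's summed level went from 13.14 (12.92 to 13.45) to 14.17 (14.12 to 14.20). Of the pericyte and smooth muscle list 3 of 8 rose (RGS5, NOTCH3 and PDGFRB), with a summed level of 12.36 (12.20 to 12.45) against 12.86 (12.78 to 12.94). Of the endothelial list EMCN rose by 1.07 while PECAM1 and TEK fell, and the summed level was 9.68 (9.61 to 9.77) against 9.60 (9.55 to 9.63). Glioma cells themselves can express many of these genes, and their part in the neural and glial changes was not tested. In U251M2, the line with the highest identity genes, none of the 27 neural stem and 18 astrocyte genes was called, beside 0% of all genes.

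On the mouse arrays, V-4084 changed 1 of the 9 genes. Nes in U87M2 tumours read 8.40, 8.26 and 8.31 with vehicle and 7.75, 7.42 and 7.29 with V-4084. The groups did not overlap, and the difference of -0.84 (SE 0.20) was called in limma's test (adjusted p = 0.0169), against 3.72% of all mouse genes in U87M2 and 1.22% in the downward direction. Over the alternatives the adjusted p ran from 0.00113 to 0.0755. It missed the threshold when U87M2 vehicle repeat 1 (0.0754) or 3 (0.0569), or V-4084 repeat 2 (0.0755) or 3 (0.0685), was left out, and the difference itself stayed between -0.97 and -0.74.

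The change in Nes was not shown to be particular to U87M2. In U118 the difference was of the same sign, with 6.79, 7.85 and 6.76 against 6.77, 6.75 and 6.46, and a value of -0.47 (-0.11 without the high vehicle repeat 2). The test of differences between the 5 lines' effects gave an adjusted p of 0.27 in limma's F test. Human NES in U87M2 differed by -0.05 (SE 0.14, limma adjusted p = 0.862).

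Markers of other cells that can hold nestin moved to different degrees beside it. From vehicle to V-4084 in U87M2 the mean summed level of the endothelial list was 12.14 and 12.14, that of the pericyte and smooth muscle list 11.29 and 11.11, and that of the Schwann and nerve list 10.56 and 10.59. Single endothelial genes did move, in opposite directions. Cldn5 differed by -1.05 (SE 0.15, limma adjusted p = 8.81e-05) and Tek by 0.43 (SE 0.11, limma adjusted p = 0.0317). Cldn5 was also called for differences between the lines' effects (limma F test, adjusted p = 0.0116). The skeletal muscle list went from 11.48 (10.82 to 11.97) to 10.69 (10.58 to 10.83), and the macrophage list from 12.58 to 13.00. Vehicle repeat 3, with a muscle level of 10.82, within the V-4084 range, had a Nes of 8.31. Their part in the difference of Nes was not tested further.

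The remaining mouse genes did not pass in any line. In limma's test 0 of 9 were called in SF295 (0.01% of all genes), U118 (0.01%), DBM2 (0%) and U251M2 (0.0401%), in each with 1 gene at an unadjusted p under 0.05. The average over lines gave 0 of 9 (3 unadjusted: Sox2, Ptprz1 and Nes) against 0.0702%, and the differences between effects 0 of 9 (1 unadjusted, Nes) against 0.341%. Pou3f2 in U87M2 read 6.97, 6.86 and 6.78 with vehicle and 6.50, 6.27 and 7.14 with V-4084. The groups overlapped only through V-4084 repeat 3, and without that array the difference of -0.48 was called (limma adjusted p = 0.0325; up to 0.979 over the alternatives).

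Of the wider lists, Glul (1.05, SE 0.19), Sparcl1 (0.62, SE 0.16), Apod (0.90, SE 0.21), Gap43 (0.70, SE 0.16) and Map2 (0.42, SE 0.12) rose in U87M2 on the mouse arrays. These are 2 of 18 astrocyte genes, 1 of 17 oligodendrocyte precursor genes and 2 of 14 neuronal genes, with 0 of 28 neural stem genes, beside 2.49% of all mouse genes that rose. Each of these genes also rose in U87M2 on the human arrays: GLUL by 0.96, SPARCL1 by 2.31, APOD by 1.34, GAP43 by 1.48 and MAP2 by 0.76. Human RNA can bind to mouse probes of like sequence, and its share in these mouse values was not tested.

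The genes with the most similar pattern over the 28 human arrays, by Pearson r, describe these lines only. For GFAP they were NLGN4X (0.989), AFF2 (0.987) and MYO5B (0.984), and for POU3F2 FREM2 (0.992), COL11A1 (0.987) and CPVL (0.986). NES was most like ILDR2 (0.970), PYROXD2 (0.965) and CSRP1 (0.959). OLIG1 and OLIG2, which differed little between lines, had CCDC177 (0.942) and NMRK2 (0.793) as their closest. On the mouse arrays Pou3f2 was most like Msi1 (0.924), Sox2 like Unc5c (0.914) and Nes like Dbn1 (0.946).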

How the data were processed

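RNA levels were read on Affymetrix arrays from 200 ng of total RNA. The deposited values are log2 intensities per probe set, made by the authors; the submitters' processing notes name RMA and Partek without saying what each did. The sources used here give no version and no genome build. They were used as deposited. Probe sets differ in brightness, so levels of different genes are not on 1 scale. A gene with more than 1 probe set was represented by its brightest on average. Probe sets without a single gene name did not enter (1754 with several genes and 12083 with none on the human array, 1621 and 12146 on the mouse array). Arrays have no read depth, and their number limits the precision.

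A model of 10 group means was fitted to each platform with limma 3.58.1 (R 4.3.3, 18 residual degrees of freedom, eBayes without trend). P-values are two-sided. An error beside a level is the SD over arrays and beside a difference limma's SE. On simulated data with 200 genes changed by 1 on the log2 scale, the human U87M2 test recovered 94% with 13 false calls. Permutations (100000, scipy 1.17.1 in Python 3.11.15) stayed within groups. A list's summed level is the log2 of its summed intensities. Named beside the 9 genes are up to 4 called genes of largest difference per wider list, genes called highest in U251M2 (chosen after their values were seen), and the 3 most similar genes, of which some are printed; SOX10, AQP4, PROM1 and the genes lower in U251M2 were chosen after their values were seen. The members and lists were chosen with earlier results of these data known. Alternatives varied the trend, probe sets, normalization, dim genes, array weights, repeat number, single arrays, the narrow-range arrays, the arrays in the fit and the lines. Promoter sequences are RefSeq's.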

Additional observations from a re-analysis of the deposited data

How the results depend on the processing

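No difference or effect of the 9 genes that was called changed sign under any alternative run. Leaving out a line also takes its own pairs out of the count. On human arrays the called pairs went from 53 to 32 (DBM2), 35 (U87M2) and 26 (U251M2). On mouse arrays they went from 40 to 26 (DBM2) and 15 (U251M2). Each line is in the same number of pairs, and of the lines left out, U251M2 left the fewest called pairs on both platforms. With dim genes left out only 3 mouse genes (Gfap, Nes and Pou3f2) stayed in the test, which gave 3 genes with line differences on vehicle and 3 on V-4084 arrays, 17 pairs and 2 genes highest in U251M2; on human arrays 1 gene (OLIG1) then passed for differences between effects. Array weights gave 4 called genes in human U118 (OLIG1, OLIG2, S100B and POU3F2), 1 in human U87M2 and 3 for differences between effects. Human U87M2 also gave 1 without the 3 narrow-range arrays and 1 with only its 2 groups. Leaving out 1 array gave 0 to 2 genes in human SF295, 0 to 1 in human U87M2, 0 to 1 for the human average, 0 to 1 for human differences between effects, 0 to 1 in mouse U87M2 and 2 to 5 mouse genes highest in U251M2. With 1 array left in a group, it is assumed to vary like the other groups.

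Within a platform, repeat numbers did not pair vehicle with V-4084 arrays of a line (r of same-numbered deviations -0.52 to 0.318 on human and -0.349 to 0.297 on mouse arrays). With the replicate block, 7 human and 7 mouse genes had line differences on vehicle and 9 and 8 on V-4084 arrays, 0 human effects and 1 mouse effect (Nes in U87M2) were called, and the count of all human genes called in U118 went from 139 to 30, on average from 2138 to 1130 and for differences between effects from 1019 to 587.

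Counts of V-4084 effects over all genes also moved. Leaving out 1 array gave 2 to 265 genes in human U118 (139), 1750 to 3552 in U87M2 (2760), 0 to 1918 in SF295 (0), 0 to 4537 in DBM2 (0), 1316 to 4146 on average (2138) and 667 to 2620 for differences between effects (1019), and 372 to 842 in mouse U87M2 (741). Array weights gave 7825 in human U118, 6779 in U87M2, 54 in U251M2 and 4088 for differences, and 1224 in mouse U87M2. Without the narrow-range arrays the human counts were 608 in U118, 4816 in U87M2 and 1888 for differences; with only the 2 groups in the fit they were 350 and 4286 in U118 and U87M2. Without U87M2 the human average and differences fell to 0, and quantile normalization gave an average of 1352. Dim levels limit what the mouse arrays can show for these genes.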
